A study of Mus musculus with 16 samples.

Results

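Slc2a2, G6pc2, Mlxipl, Txnip and Gjd2 are 5 genes that serve glucose handling in the pancreatic beta cell, and all 5 were measured among the 10208 genes of the authors' deposited table. They were chosen by name for their roles, and each name matched 1 row. The beta cell senses glucose through its own metabolism. Glucose enters through GLUT2, the transporter encoded by Slc2a2 in rodents, and is then phosphorylated. The islet glucose-6-phosphatase subunit encoded by G6pc2 removes that phosphate again. Glucose metabolites also activate ChREBP, the transcription factor encoded by Mlxipl, which binds carbohydrate response elements together with its partner MLX. Txnip, which encodes a thioredoxin-binding alpha-arrestin, is one of its best known targets. Gjd2 encodes connexin 36, the gap junction protein that couples beta cells electrically.

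RNA came from pancreatic islets of adult mice on a mixed, mostly C57Bl/6 background. They lacked Ins1 on both alleles and carried a loxP-flanked Ins2 and the mTmG reporter. The genotype label also lists a Pdx1CreERT transgene. CreERT is a recombinase activated by tamoxifen, and Pdx1 regulatory sequence drives it, which in adult islets is active mainly in beta cells and also in delta cells. All mice had tamoxifen 6 days before islet isolation, and the samples were labelled Cre+T (7 samples) or Cre-T (9 samples). The labels print the same genotype string for both groups and do not tell which mice had the transgene or whether each sample was a separate animal. The comparison asks how islets respond transcriptionally to acute loss of Ins2. Going by the Esr1 and Ins2 values given below, the groups also differed in CreERT, and the fall of Ins2 RNA was partial. Any effect of CreERT with tamoxifen apart from loss of Ins2 was not tested.

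The authors' deposited table holds 1 contrast and no value for any single sample, so neither a level per sample nor an SD per group can be given. The depth of each library is unknown here, and the labels state 20000000 read pairs of 150 bp per sample. P-values measure only variation among these samples, which may be partly technical. The sample titles start with 6 different numbers that the labels leave unexplained. Only 2 of these numbers, with 7 samples, hold both groups. Without values per sample, any effect of these numbers cannot be told apart here from that of the groups. The direction was read from Ins2, at 0.723-fold of Cre-T per the authors' deposited table (95% interval 0.564 to 0.929), and from a 9.30 log2 unit rise of Esr1, whose domain is part of CreERT. The sign of these genes is therefore assumed and not tested. Hormone genes of islets had high mean levels per the authors' deposited table, at 16.34 log2 CPM (counts scaled to library size) for Ins2, 14.13 for Gcg, 11.39 for Ppy and 11.30 for Sst.

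Carbohydrate response elements, the sites that ChREBP and MLX bind, consist of a spaced pair of E-box-like sites, and the promoter of Txnip is known for one. Its sequence is given here beside those of Arrdc4, the closest relative of Txnip among glucose-responsive alpha-arrestins, and of Mlxipl itself. Each run is the 250 bases before a RefSeq transcription start on GRCm38.p6, 5′ to 3′ on the gene's strand. Capitals mark matches to the E-box CACGTG or to a spaced pair of E-box-like sites, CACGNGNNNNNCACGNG, each searched on both strands. The pair motif was written after the Txnip window had been read, and its sites may include CACGTG.
Txnip, chr3:96557707-96557956, plus strand: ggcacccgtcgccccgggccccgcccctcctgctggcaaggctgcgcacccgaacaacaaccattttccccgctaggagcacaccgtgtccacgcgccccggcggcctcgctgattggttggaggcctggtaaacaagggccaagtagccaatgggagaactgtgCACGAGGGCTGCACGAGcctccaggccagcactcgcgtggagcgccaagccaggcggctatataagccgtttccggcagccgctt
Arrdc4, chr7:68749239-68749488, minus strand: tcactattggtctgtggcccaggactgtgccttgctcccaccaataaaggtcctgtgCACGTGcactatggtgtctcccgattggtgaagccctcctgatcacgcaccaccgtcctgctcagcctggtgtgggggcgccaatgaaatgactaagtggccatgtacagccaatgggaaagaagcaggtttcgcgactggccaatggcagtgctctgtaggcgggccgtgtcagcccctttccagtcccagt
Mlxipl upstream start, chr5:135089640-135089889, plus strand: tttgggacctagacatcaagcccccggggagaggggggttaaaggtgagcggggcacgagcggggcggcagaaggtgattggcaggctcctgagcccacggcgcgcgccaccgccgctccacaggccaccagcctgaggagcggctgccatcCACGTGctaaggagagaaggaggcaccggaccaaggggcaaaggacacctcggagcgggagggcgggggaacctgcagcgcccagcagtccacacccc
Mlxipl downstream start, chr5:135106641-135106890, plus strand: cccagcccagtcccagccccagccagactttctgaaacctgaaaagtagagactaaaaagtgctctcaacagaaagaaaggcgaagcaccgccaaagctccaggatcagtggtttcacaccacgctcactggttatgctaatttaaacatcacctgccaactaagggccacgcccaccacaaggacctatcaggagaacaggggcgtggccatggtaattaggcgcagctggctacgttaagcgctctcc
In the Txnip window the pair CACGAGGGCTGCACGAG began 85 bases before the start. Such a pair was found in 15 of 32851 windows of the same length, or 0.0457%, and CACGTG in 6.02%. Arrdc4 had no such pair but had a CACGTG 193 bases before its start. The inverted or direct CCAAT box, found in 33.8% of windows, occurred 6 times in the Arrdc4 window, 2 times each in those of Txnip and Slc2a2, and 1 time in the upstream window of Mlxipl. The downstream Mlxipl start lies 17001 bases from the upstream one and had neither E-box motif in its window, while the upstream window held a CACGTG 98 bases before the start. The windows of Slc2a2, G6pc2 and Gjd2 held neither E-box motif, and those of G6pc2 and Gjd2 no CCAAT box. A match is a description of letters and not evidence of binding.

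Of the 5 genes, Txnip and Gjd2 were higher in Cre+T at a limma adjusted p under 0.05 per the authors' deposited table, and Slc2a2, Mlxipl and G6pc2 did not pass. Over all rows 37.6% passed in either direction, 17.6% higher and 20.1% lower, so 2 of 5 (40.0%) is near the background and says nothing particular about these genes. All 5 fold changes were positive, with a median of 0.44 log2 units, where the median over all rows was -0.003 and 49.5% of rows were positive. Among the 1292 rows whose mean was 7 log2 CPM or more, as it was for these 5 genes, 37.8% passed, 25.2% passed as higher and 61.6% were positive. Estimated from mean and fold change for groups of 7 and 9, the level in Cre-T and in Cre+T was 155 and 237 CPM for Slc2a2, 1880 and 2070 CPM for G6pc2, and 136 and 179 CPM for Mlxipl. It was 141 and 209 CPM for Txnip and 199 and 269 CPM for Gjd2, all derived from the authors' deposited table. None of the 5 was lower by limma, and at an unadjusted p under 0.05 the count was 3 higher and 0 lower.

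**Figure D1:**
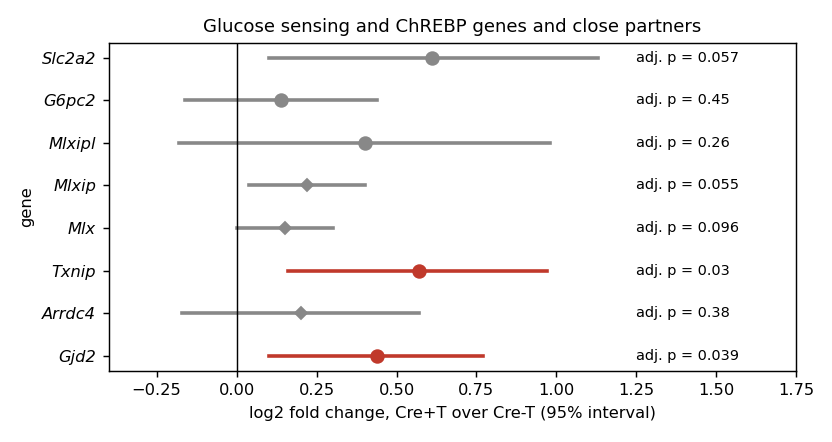
Log2 fold change of Cre+T over Cre-T (horizontal axis) for the 5 genes (circles) and 3 close partners (diamonds) with 95% intervals, red where the limma adjusted p was under 0.05 and grey otherwise. Txnip and Gjd2 are red, while Slc2a2 has the highest estimate of the 5 genes, 0.61, and a wide interval from 0.10 to 1.13.

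Glucose entry was represented by Slc2a2 (ENSMUSG00000027690.8, chromosome 3, 28697903 to 28731359, GENCODE M21 on GRCm38). Its mean was 7.54 log2 CPM, and its level in Cre+T was 1.53-fold that in Cre-T with a 95% interval of 1.07 to 2.19, from the authors' deposited table. The log2 fold change of 0.61 ± 0.24 (SE) had a limma adjusted p of 0.057 per the authors' deposited table and did not pass, while the unadjusted p was 0.023. With this error a change of 0.64 log2 units would have been needed to pass.

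Of 7 measured glucose transporters, hexokinases and their regulators (17 listed), Slc2a2 included, 1 rose, 1 fell and 5 did not pass per the authors' deposited table. That is 28.6% called beside 37.6% of all rows, with a median of 0.01 log2 units. Pfkfb2, which encodes a bifunctional enzyme that makes and removes the glycolytic activator fructose 2,6-bisphosphate, rose by 0.50 ± 0.14, and Slc2a8, an intracellular glucose transporter gene, fell with a log2 fold change of -0.48 ± 0.13 according to the authors' deposited table. The fructose transporter gene Slc2a5 stood at 0.24 ± 0.10 with a limma adjusted p of 0.066. Slc2a1, the widely expressed transporter GLUT1, was at -0.13 ± 0.37 and the low-Km hexokinase gene Hk1 at 0.01 ± 0.18 per the authors' deposited table. The interval of Slc2a1, from -0.91 to 0.64, leaves room for a change in either direction as large as that of Slc2a2.

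G6pc2 (ENSMUSG00000005232.6, chromosome 2, 69211073 to 69227841) was among the most abundant transcripts of the islets and had no detected difference between the groups. Its mean of 10.93 log2 CPM ranked 22 of 10208 per the authors' deposited table. Per kilobase of annotated exon it reached 991 CPM, against 78.8 for Gjd2, 53.6 for Txnip, 32.4 for Slc2a2 and 27.6 for Mlxipl. These are means over both groups, and no spread over samples is given for them, so whether neighbours in that order differ cannot be judged. The fold of Cre+T over Cre-T was 1.10 with a 95% interval of 0.896 to 1.36 (log2 fold change 0.14 ± 0.14, limma adjusted p = 0.45 per the authors' deposited table). The estimate turned to -0.0016 when the sums of expression were equalised between groups, a scaling described below.

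The list of the glucose-6-phosphatase system, G6pc2 included, also holds Slc37a1 and Slc37a3, relatives of its transporter gene Slc37a4. This list split by gene per the authors' deposited table. Of 5 measured genes 2 were higher, 2 lower and 1, G6pc2 itself, did not pass, that is 80.0% called beside 37.6% of all rows. G6pc3, the widely expressed catalytic subunit, fell with a log2 fold change of -0.32 ± 0.07 (limma adjusted p = 0.0023). Slc37a4, the transporter that carries glucose-6-phosphate into the endoplasmic reticulum, rose by 0.26 ± 0.09 and its relative Slc37a1 by 0.48 ± 0.17, while Slc37a3 fell with -0.24 ± 0.06 per the authors' deposited table. Both rises were lost under 2 other scalings described below (adjusted p 0.063 to 0.29), whereas the falls of G6pc3 and Slc37a3 were kept.

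Mlxipl (ENSMUSG00000005373.8, chromosome 5, 135089890 to 135138382) had a mean of 7.26 log2 CPM and the widest interval of the 5 genes. Its fold was 1.32 with a 95% interval of 0.88 to 1.97, that is 0.40 ± 0.27 log2 units, and the limma adjusted p was 0.26 per the authors' deposited table. ChREBP has a full-length alpha form, made from the downstream start shown above, and a shorter, strongly active beta form made from the upstream one. A single value per gene adds both forms, so a shift between them could not be seen. Mlx, the shared dimer partner, was at 0.15 ± 0.07 (limma adjusted p = 0.096) and Mlxip, which encodes the paralogue MondoA, at 0.22 ± 0.09 (0.055) per the authors' deposited table. Mlxipl, Mlx and Mlxip had positive estimates and none passed. With equal sums, a scaling described below, the estimates were 0.25 for Mlxipl, 0.01 for Mlx and 0.07 for Mlxip.

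Of 11 measured factors of the MYC, MAX and MLX network, with Mlxipl, Mlx and Mlxip included, 1 rose, 1 fell and 9 did not pass per the authors' deposited table. That is 18.2% called beside 37.6% of all rows, with a median of 0.05 log2 units. Mxd1, a MAX-binding repressor, rose by 0.48 ± 0.14, and Mxd4, a repressor of the same family, fell at -0.38 ± 0.10 per the authors' deposited table. These counts depended on scaling. With ribosomal genes at 0 there were 1 higher and 3 lower, where 12.3% of all rows were higher and 27.5% lower. With equal sums there were 0 higher and 4 lower, where 8.42% of all rows were higher and 38.5% lower. The lower counts are near these shares. Mxd1 missed the threshold with equal sums (adjusted p = 0.052). Besides Mxd4, those lower with equal sums were Mnt (-0.29), Usf2 (-0.24) and Max (-0.16), named after their values were seen. Usf1, which can bind the same E-boxes, was at 0.20 ± 0.08 with a limma adjusted p of 0.070.

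Txnip (ENSMUSG00000038393.9, chromosome 3, 96557957 to 96561883) rose 1.48-fold with a 95% interval of 1.12 to 1.96. Its mean was 7.39 log2 CPM and the change 0.57 ± 0.19 log2 units at a limma adjusted p of 0.030 per the authors' deposited table. It did not pass with equal sums (0.42, adjusted p = 0.08), a scaling described below. Arrdc4, the alpha-arrestin gene whose promoter is shown above, was at 0.20 ± 0.18 (limma adjusted p = 0.38) and at a mean of 4.73 log2 CPM per the authors' deposited table. Its interval of -0.17 to 0.57 reaches the Txnip estimate, and the difference between them was not tested. Of the 14 genes whose promoter window held the spaced pair of E-box-like sites, 8 had a row, 1 of them Txnip itself, from whose window the motif was written. Of the other 7, 2 rose and 1 fell per the authors' deposited table, a count too small to read against the 37.6% called over all rows. The NF-kappa-B subunit gene Nfkb2 (1.10 ± 0.29) and Fem1b (0.55 ± 0.17), a ubiquitin ligase substrate receptor, rose, and A430005L14Rik fell at -0.29 ± 0.08 per the authors' deposited table. These genes were named after their values were seen.

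TXNIP binds thioredoxin. Of 8 measured genes of thioredoxins, thioredoxin reductases and alpha-arrestins, Txnip rose, 3 fell and 4 did not pass, with a median of -0.13 per the authors' deposited table. These 37.5% lower and 12.5% higher stand beside 20.1% and 17.6% over all rows, where falls are also the more frequent. Txnrd1 (-0.49 ± 0.15) and Txnrd2 (-0.38 ± 0.12), the cytosolic and mitochondrial reductases, fell, as did Txn2, mitochondrial thioredoxin, at -0.20 ± 0.06 per the authors' deposited table. Txn1, the cytosolic thioredoxin and best known partner of TXNIP, was at -0.27 ± 0.12 and did not pass (limma adjusted p = 0.081). Under 2 other scalings described below Txn1 passed as lower, with ribosomal genes at 0 (-0.34, adjusted p = 0.034) and with equal sums (-0.42, adjusted p = 0.01). With equal sums the list had 0 higher and 4 lower genes, where 8.42% of all rows were higher and 38.5% lower. Arrdc3 and Arrdc1, alpha-arrestins of the same family, were at -0.07 ± 0.09 and 0.01 ± 0.12 per the authors' deposited table.

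Of 18 measured genes that ChREBP or glucose induce in liver or islets (24 listed), 9 rose, 2 fell and 7 did not pass, with a median of 0.37 log2 units per the authors' deposited table, Txnip included. Over all rows 17.6% were higher and 20.1% lower, and the 2 that fell here are 11.1% of the list. The fatty acid desaturase genes Scd1 (1.56 ± 0.23) and Scd2 (0.80 ± 0.16), the elongase gene Elovl6 (0.53 ± 0.14) and Gpd1, glycerol-3-phosphate dehydrogenase (0.36 ± 0.09), rose per the authors' deposited table. Fasn, fatty acid synthase, rose by 0.38 ± 0.14, and Scd1, Scd2, Elovl6 and Fasn are also known targets of SREBP factors. Named after their values were seen, Rgs16 (0.63 ± 0.18), a G-protein regulator, the ketohexokinase gene Khk (0.60 ± 0.18) and Klf10 (0.54 ± 0.17), a zinc finger factor induced by glucose, rose as well per the authors' deposited table. Pklr, the liver-type pyruvate kinase gene and a classic ChREBP target in liver, fell at -0.59 ± 0.17 and Mid1ip1, an activator of acetyl-CoA carboxylase, at -0.29 ± 0.08 per the authors' deposited table. The mean of Pklr was low, at 3.02 log2 CPM, above only 4.3% of rows. Acly (-0.42 ± 0.17), Me1 (-0.37 ± 0.17) and Tkt (-0.17 ± 0.08), enzymes of citrate cleavage, NADPH supply and the pentose phosphate path, did not pass on the authors' scaling. After the equal-sum scaling described below the list had 5 higher and 5 lower genes, where 8.42% of all rows were higher and 38.5% lower. Txnip, Fasn, Gpd1 and Klf10 no longer passed there, and Acly (adjusted p = 0.014), Me1 (0.02) and Tkt (0.0038) passed as lower.

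**Figure D2:**
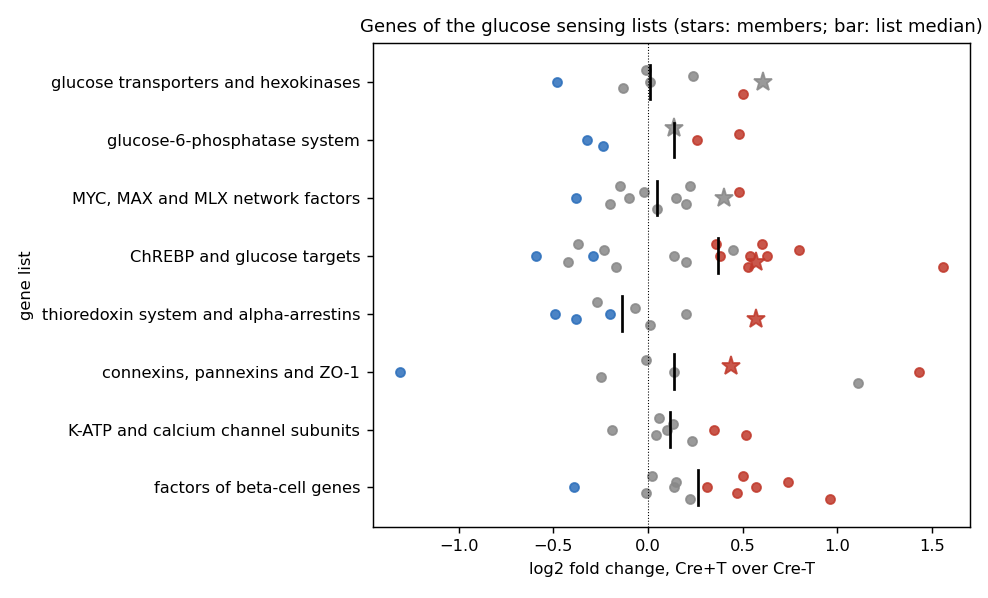
Each point is the log2 fold change (horizontal axis) of 1 measured gene in each of 8 gene lists (vertical axis), red or blue where higher or lower at a limma adjusted p under 0.05 and grey otherwise, with stars for the 5 genes and a bar at each list's median. The ChREBP list has 9 red and 2 blue points, and in the thioredoxin list the star of Txnip is the 1 red point beside 3 blue ones.

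Gjd2 (ENSMUSG00000068615.4, chromosome 2, 114009601 to 114013619, minus strand) rose 1.35-fold with a 95% interval of 1.07 to 1.70. Its mean was 7.83 log2 CPM, and the change was 0.44 ± 0.16 log2 units at a limma adjusted p of 0.039 per the authors' deposited table. The call was lost under 2 other scalings described below, at 0.37 with ribosomal genes at 0 (adjusted p = 0.07) and at 0.29 with equal sums (adjusted p = 0.14). An antisense or opposite-strand transcript overlaps exons of Gjd2 (A530058N18Rik), of Txnip (Gm15441) and of Mlxipl (Gm43500) in GENCODE. None of these transcripts had a row, and the sources used here do not say whether strand was used in counting, so their reads cannot be told apart from those of the 3 genes.

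Among other channel-forming junction genes the values were of mixed sign. Of 7 measured connexins, pannexins and ZO-1, Gjd2 included among those that rose, 2 rose, 1 fell and 4 did not pass per the authors' deposited table. That is 42.9% called, near the 37.6% of all rows, with a median of 0.14. Panx2, a large-pore channel gene, fell to 0.403 of the Cre-T level (-1.31 ± 0.19 log2 units, limma adjusted p = 3.2e-04), and Gjb2, an epithelial connexin also found in acinar cells, rose 2.69-fold per the authors' deposited table. Both had low means, 3.08 log2 CPM for Panx2 and 3.07 for Gjb2, each above only 5.1% of rows. Gja4, a connexin of vessels, was at 1.11 ± 0.49 and Tjp1, the junctional scaffold ZO-1, which binds connexins, at 0.14 ± 0.06, and neither passed per the authors' deposited table. Gjd2 had the highest level of the 7 per kilobase of exon, at 78.8 CPM against 19.9 for Tjp1 and 3.50 for Gjb2.

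The K-ATP channel closes and calcium channels open in the steps that follow glucose metabolism. Of 8 measured subunits of these channels, 2 rose and none fell by limma, where 37.6% of all rows were called, with a median of 0.11 per the authors' deposited table. At an unadjusted p under 0.05 the counts were 2 higher and 1 lower. The calcium channel beta subunits Cacnb3 (0.35 ± 0.08) and Cacnb2 (0.52 ± 0.14) rose, and the pore subunits Cacna1d (0.23 ± 0.14) and Cacna1c (-0.19 ± 0.09) did not pass per the authors' deposited table. Abcc8, which encodes the sulfonylurea receptor of the K-ATP channel, was at 0.04 ± 0.08 with an interval of -0.12 to 0.20, and its partner Kcnj11 at 0.13 ± 0.11.

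Of 12 measured factors known to act on Slc2a2 or G6pc2 in beta cells, 6 rose, 1 fell and 5 did not pass, with a median of 0.26 per the authors' deposited table. Over all rows 17.6% were higher and 20.1% lower, and 25.2% were higher among rows with a mean of 7 log2 CPM or more, as 5 of the 12 had. Hnf4a (0.96 ± 0.21), a nuclear receptor of the MODY genes, Mafa (0.74 ± 0.19), a maturity factor, Pdx1 (0.57 ± 0.11) and Foxo1 (0.50 ± 0.10), a factor that insulin signalling keeps out of the nucleus, had the smallest p per the authors' deposited table. Isl1, a LIM homeodomain factor of all islet endocrine cells, was the 1 that fell, at -0.39 ± 0.10 (limma adjusted p = 0.0082), and it was named after its value was seen. After the equal-sum scaling 4 were higher and 1 lower, where 8.42% of all rows were higher and 38.5% lower. Neurod1 (0.33) and Pax6 (0.17) no longer passed there.

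**Figure D3:**
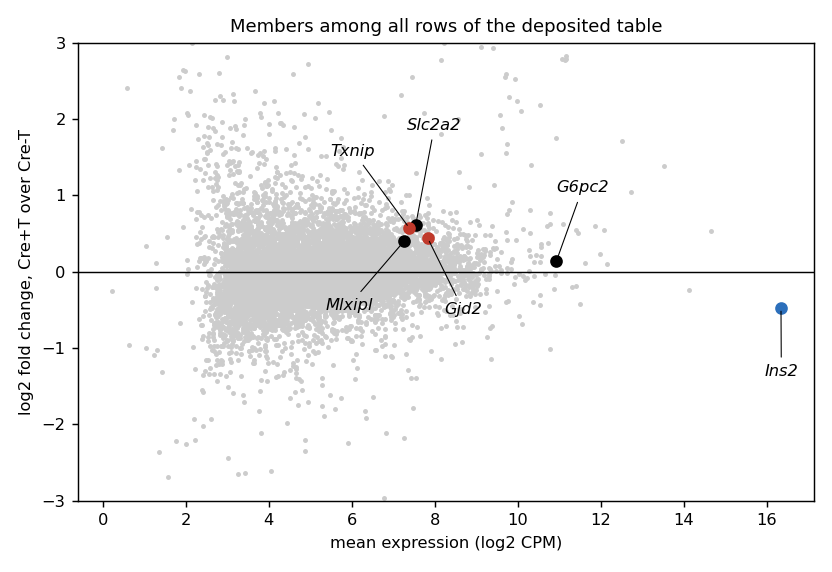
Log2 fold change of Cre+T over Cre-T (vertical axis) against mean expression in log2 CPM (horizontal axis) for all 10208 rows in grey, 29 of which lie beyond the vertical axis, with the 5 genes and Ins2 marked in red or blue where called and black otherwise. Slc2a2, Txnip, Mlxipl and Gjd2 lie together at 7.26 to 7.83 log2 CPM above the 0 line, G6pc2 stands apart at 10.93, and Ins2 has the highest mean.

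Apart from G6pc2, the genes had larger standard errors than most genes of like abundance. The SE of Mlxipl, 0.27, exceeded that of 97.7% of the 1069 rows within 0.5 log2 CPM of its mean, where the median SE was 0.08, as computed from the authors' deposited table. The share was 97.6% for Slc2a2, 95.6% for Txnip and 90.3% for Gjd2, each against a median of 0.08. For G6pc2 it was 40.0% of only 25 rows, with a median of 0.18. With these errors the change needed to pass ran from 0.37 log2 units for G6pc2 through 0.41 for Gjd2 and 0.50 for Txnip to 0.64 for Slc2a2 and 0.71 for Mlxipl. In Mlxipl, a change as large as that of Txnip would not have been called.

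**Figure D4:**
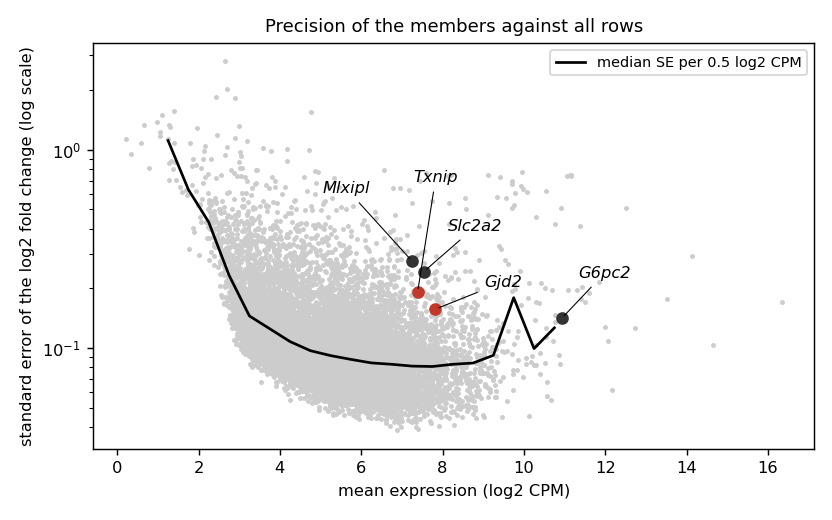
Standard error of the log2 fold change (vertical log axis) against mean expression in log2 CPM (horizontal axis) for all rows in grey, with a line for the median SE in steps of 0.5 log2 CPM and the 5 genes as large points, red where called. Mlxipl, Slc2a2, Txnip and Gjd2 lie above the line, at 0.27, 0.24, 0.19 and 0.16 against a median of 0.08.

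The calls depended on scaling. Fold changes were shifted by 0.065 log2 units to set the median of 78 ribosomal protein genes to 0, or by 0.143 to make the summed expression of both groups equal. After the first shift Txnip was at 0.50 and passed (adjusted p = 0.048), and Gjd2 did not. After the second neither passed. Over all settings, leaving out the authors' q-value, the adjusted p ran from 0.029 to 1.0 for Txnip and from 0.038 to 1.0 for Gjd2. With equal sums the median of 5 lists turned negative, from 0.01 to -0.13 for transporters and hexokinases, from 0.05 to -0.09 for the MYC, MAX and MLX network, from 0.14 to -0.01 for connexins, from 0.11 to -0.03 for channel subunits and from 0.14 to -0.0016 for the phosphatase system, where G6pc2 is the median gene. The shifts also moved the background, and the share of calls that were higher went from 46.7% to 31.0% and 17.9%.

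**Figure D5:**
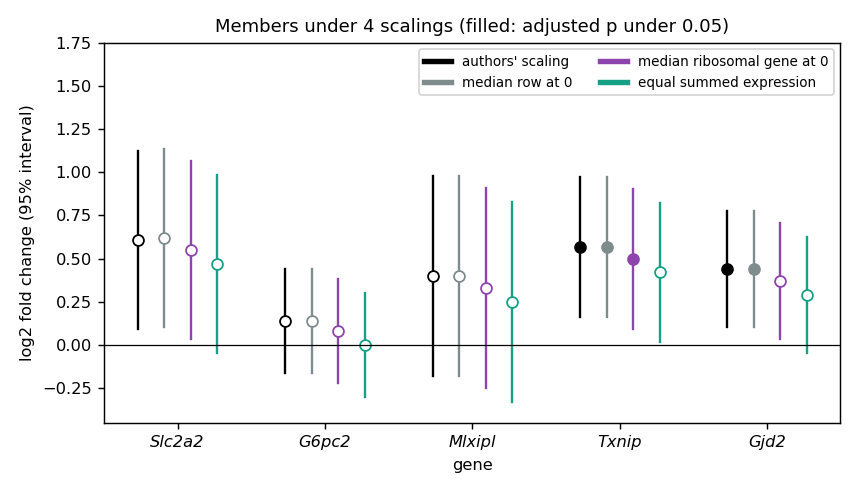
Log2 fold change with its 95% interval (vertical axis) for each of the 5 genes (horizontal axis) on the authors' scale, with the median row at 0, with the median ribosomal protein gene at 0 and with equal summed expression, filled where the adjusted p was under 0.05. Txnip is filled under 3 scalings and Gjd2 under 2, and the estimate of G6pc2 reaches 0 under the last one.

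Markers of other cells moved in the same comparison, where 17.6% of all rows were higher and 20.1% lower. All 15 measured acinar markers of 18 listed were higher, with a median of 2.54 log2 units per the authors' deposited table. Their summed level, estimated for groups of 7 and 9, was 0.831% of the CPM scale in Cre-T and 3.63% in Cre+T. Such sums add group means of log2 values taken gene by gene and are no true share of counts. Of 8 beta-cell markers, which include Pdx1 and Mafa named above, 7 rose and none fell by limma, the same counts as at an unadjusted p under 0.05. Their median was 0.69, with an estimated summed level of 2.52% and 3.73% per the authors' deposited table. Of 10 alpha, delta and PP cell markers 1 rose and 2 fell (median -0.22), that is 30.0% called beside 37.6% of all rows. Leukocyte markers rose in 3 of 7 measured, red blood cell markers in 3 of 4 and endothelial markers in 1 of 8, ductal markers in 0 of 6 by limma (1 at an unadjusted p under 0.05) with 1 lower, and fibroblast markers had 1 in each direction of 6. The part of these shifts in the values of the 5 genes was not tested, and fewer cells of a type cannot be told apart from less RNA per cell in whole islets.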

How the data were processed

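The authors sequenced islet RNA of 16 samples, 7 of them Cre+T and 9 Cre-T. TopHat2, the build GRCm38 and limma are named without versions, per the submitters' processing notes. How reads were counted, which low genes were removed and which samples were fitted is not given in the labels or the file. The authors deposited log2 fold changes and mean log2 CPM values, a moderated t score and a log-odds score, and p-values, adjusted p-values and q-values, per the file headers. The q-value was 0.325 times the adjusted p throughout. The adjusted p equalled a recomputed Benjamini-Hochberg value in all 10208 rows within 1e-06. P-values in 197 rows checked fitted a t distribution with 16.1 degrees of freedom.

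SE was computed as the log2 fold change over t, and intervals from 16.1 degrees of freedom. Genes passed at an adjusted p under 0.05. Levels per group were estimated from the mean and the fold change, assuming that all 16 samples entered the fit. IDs were matched to GENCODE M21 (10190 matched, 18 did not). All 5 genes had a promoter window in RefSeq. The equal-sum shift and the summed marker levels come from group means of log2 values and are no true totals. Named genes were the 5 members, Ins2, Esr1, the 4 genes of smallest p in each list, and Mlx, Mlxip, Arrdc4, Slc2a1 and Txn1. One gene that this rule takes is not reported here and was left out of its list and the counts. Others were chosen after their values were seen. A search for genes of like pattern needs values per sample and was not made. The members and lists were chosen with earlier results of these data known. The adjustment and the intervals were tested on simulated data. Software was Python 3.11.15, pandas 2.3.3, scipy 1.17.1 and matplotlib 3.10.9.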

Additional observations from a re-analysis of the deposited data

How the results depend on the processing

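No paired analysis was possible because the table holds no values per sample; for the same reason no sample could be left out and no other normalization of counts be run. Of the 12 settings, only the scalings change an estimate, and the others reuse it with another rule for passing. The setting on repeated names could not act, because no member name was repeated. The tallies are therefore no measure of robustness. Slc2a2 ran from 0.47 to 0.62 log2 units, the largest shift of 0.143 being too small to turn its sign. It passed in 2 of 12, at a threshold of 0.1 (0.61) and with the authors' q-value (0.61). Txnip passed in 9 of 12 and missed at a threshold of 0.01 (0.57), under Holm adjustment (0.57) and with equal summed expression (0.42). Gjd2 passed in 7 of 12 and missed at 0.01, under Holm and with a minimum change of 0.5 (0.44 each), with ribosomal genes at 0 (0.37) and with equal sums (0.29). Mlxipl never passed (0.25 to 0.40). G6pc2 never passed and turned to -0.0016 with equal sums (adjusted p = 0.99). The count of the 5 genes that passed, 2 as reported, was 0 at 0.01, 0 under Holm, 0 with equal sums, and 1 with ribosomal genes at 0 or a minimum change of 0.5; over all rows Holm left 1.35%. In these settings the smaller counts follow from the stricter rule or the shift by construction.

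For the lists, at 0.01 the numbers passing were 4 for the ChREBP targets (11 as reported), 0 for transporters and hexokinases (2), 2 for the phosphatase system (4), 1 for the MYC, MAX and MLX network (2), 0 for the thioredoxin system (4), 1 for connexins (3) and 1 for channel subunits (2). Holm left 1 ChREBP target, 1 connexin-list gene and 0 in each of the other 6 lists, beside 1.35% of all rows. At 0.1, where 47.3% of all rows passed, the network had 6, connexins 5 and transporters 4. With the q-value, where 54.4% of all rows passed, they had 7, 5 and 4. Restricting to rows at or above the median mean, where 37.2% passed, also removed genes from the lists. Of the genes left, 1 of 7 channel subunits, 1 of 8 network factors, 1 of 2 connexin-list genes and 1 of 4 transporters and hexokinases passed. With ribosomal genes at 0, the phosphatase system had 2, both lower, and the network 4, 3 of them lower. Over all rows 12.3% were then higher and 27.5% lower. With equal sums they had 2 and 4, all lower, where 8.42% of all rows were higher and 38.5% lower. A minimum change of 0.5 left 15.0% of all rows. It left 1 channel subunit, 1 of the transporters, 0 of the network, 0 of the phosphatase system and 1 of the thioredoxin system. Of the 12 beta-cell factors it left 3 (7 as reported).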
